A study of Mus musculus with 15 samples.

Results

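The distal colon mucosa of mice given dextran sodium sulfate (DSS) together with filgotinib was compared with that of mice given water, to ask which genes stayed changed despite treatment. The members were the 10 arrays titled for these groups, 5 mice in each, of 15 arrays in the series. The other 5 arrays came from mice given DSS with the vehicle of filgotinib, and their values are set beside the members where they bear on a result. DSS is a sulfated polysaccharide that injures the colon epithelium when it is drunk, and filgotinib is a kinase inhibitor that prefers the Janus kinase JAK1. All mice were female Balb/cJ and 8 weeks old when colitis was started. The DSS vehicle and filgotinib groups drank 4% DSS in 3 cycles of 4 days, with washouts of 3 days on regular water between them, and the filgotinib group was gavaged daily with 30 mg/kg of the compound. The water group drank no DSS; its compound is labelled a vehicle control while the design text names drinking water alone, so whether these mice were gavaged is not settled. Mucosa was scraped from the last 30 mm of descending colon, and 100 ng of RNA from 1 mouse was labelled with Cy3 for each 1-colour Agilent array.

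The colon lining is renewed from stem cells at the crypt base, which depend on Wnt signals from the surrounding stroma and are marked by genes such as Lgr5 and Ascl2. Their daughters divide in the lower crypt, passing from DNA replication (S phase) to mitosis (M phase), and then mature into absorptive, goblet, enteroendocrine or tuft cells. JAK1 passes on the signals of interferons and of many interleukins, and inhibitors of it are used against inflammatory bowel disease.

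A gene's level is given as the log2 of its background-subtracted signal minus the 75th percentile of the array, so 0 is the 75th percentile and a difference of 1 is a doubling; levels of different genes are not comparable, since each has its own probe. The threshold for a call was an adjusted p of 0.05 in limma, with n = 5 mice per group, and "rose" and "fell" stand for calls against water unless the text says otherwise. The arrays had between 50.2% and 62.1% of probes well above background, a mark set by the scanner software, no saturated spot, and a 75th percentile of the signal between 684 and 813 in water mice, 552 and 663 in filgotinib mice and 570 and 667 in DSS vehicle mice. The epithelial markers Epcam, Krt8, Krt19, Krt20, Vil1, Cdh1 and Cdx2 were above the 75th percentile in every mouse, and 1 of the 7 was called against water: Krt19 rose by 0.25 (adjusted p = 0.0287). Krt8 had 0.21 (adjusted p = 0.068), Vil1 0.24 (adjusted p = 0.0724) and Epcam -0.0028 (adjusted p = 0.986), and the other 3 had between 0.09 and 0.18. The leukocyte gene Ptprc differed by -0.02 (adjusted p = 0.891) and the fibroblast gene Col1a1 by -0.03 (adjusted p = 0.985). The 4 probes of Ptprc ranged from -0.02 to 0.55 and the 3 probes of Col1a1 from -0.03 to 0.12. Precision is limited by the 5 arrays per group. Since mucosa is a mixture of cells, fewer cells of a type and less RNA per cell cannot be told apart.

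Of 22006 genes tested, 2163 (9.83%) differed between filgotinib and water: 1413 (6.42%) rose and 750 (3.41%) fell. Large differences were more often falls: 129 genes (0.586%) fell and 60 (0.273%) rose by at least 2-fold. DSS vehicle mice, compared with the same water mice, had 4219 called genes (19.2%), of which 2367 (10.8%) were higher and 1852 (8.42%) lower. The direct comparison of filgotinib with DSS vehicle called 2492 genes (11.3%), 1495 (6.79%) higher and 997 (4.53%) lower under filgotinib. The 5 values of filgotinib mice did not overlap with those of water mice for 2106 genes (9.57%), with 1485 (6.75%) above and 621 (2.82%) below. The median difference of all genes between filgotinib and water was 0.05. The split between higher and lower calls moved with the scaling of the arrays: 65.3% of called genes were higher with the 75th percentile, 48.8% with median scaling and 48.9% with quantile normalization.

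No slide held both water and filgotinib arrays, and with the slide as a fixed block, which links these groups only through the DSS vehicle arrays, 2 genes (Lgr5 and Smoc2) kept a call and 1794 had an unadjusted p under 0.05. No within-slide value can be had for this comparison. The blocked value sets water mice 3 and 5 against DSS vehicle mouse 2, which shared a slide. It also sets filgotinib mice 1 and 2 against DSS vehicle mice 1, 4 and 5, which shared another. The remaining water and filgotinib mice shared no slide with another group and do not inform it. The blocked value is given beside the main genes with this limit. With the slide as a random block 1397 genes were called. On the first scan day, which held water mice 1, 2 and 4 and filgotinib mice 1, 2, 4 and 5, 715 genes were called. The count was 745 without filgotinib mouse 5, 1198 without filgotinib mouse 4 and between 788 and 971 without water mouse 2, 4 or 5, and it was 2886 without filgotinib mouse 3.

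Genes of the crypt base were among those far below water under filgotinib. The list of stem cell markers and Wnt targets had 25 measured members, of which 12 (48%) fell and none rose, beside 3.41% of all genes that fell. Its median difference was -0.56 against 0.05 for all genes. In DSS vehicle mice 12 of the 25 fell and 1 rose relative to water, with a median of -0.51. In the direct comparison of filgotinib with DSS vehicle none of the 25 was called by limma (2 at an unadjusted p under 0.05), with a median difference of -0.09. The per-mouse median of the list, relative to the water mean, was -0.45, -0.41, -0.72, -0.65 and -0.85 in filgotinib mice 1 to 5. It lay between -0.08 and 0.11 in water mice and between -0.72 and -0.11 in DSS vehicle mice, so all filgotinib mice were below all water mice and within or just beyond the range of DSS vehicle mice. The count of fallen genes was 8 without filgotinib mouse 5 or water mouse 5 and between 9 and 13 without each other water or filgotinib mouse; it was 6 on the first scan day and 2 with the slide as a fixed block.

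Ascl2, the transcription factor that specifies intestinal stem cells, had levels of 1.90, 2.36, 2.46, 2.17 and 2.47 in water mice and -2.37, -2.95, -3.57, -4.21 and -3.76 in filgotinib mice. Every filgotinib mouse was more than 4 log2 units below every water mouse, and DSS vehicle mice were scattered from -5.76 to -0.63 over the same low range. The difference from water was -5.64 ± 0.71 (SE; adjusted p = 0.00215), a 49.9-fold fall, and -5.75 with the slide as a fixed block (adjusted p = 0.537). Filgotinib and DSS vehicle mice differed by -0.09 ± 0.71 (adjusted p = 0.949).

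Lgr5, the receptor for R-spondins that defines crypt base columnar cells, was at -0.88, -1.22, -1.42, -1.74 and -1.38 in water mice. Its signal was not well above background on any filgotinib or DSS vehicle array, so these groups have only an upper bound. Lgr5 was at least 7.43-fold lower in filgotinib mice than in water mice (adjusted p = 1.39e-09), a bound set by the lowest signal that counts as well above background on each array. It kept its call with the slide as a fixed block (adjusted p = 0.00322).

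Smoc2, a secreted matricellular protein of the stem cell signature, was at 2.00, 2.19, 1.72, 1.93 and 1.91 in water mice and at 0.39, 0.46, -0.73, -1.34 and -1.50 in filgotinib mice. Filgotinib mice 1 and 2 were the nearest to water, and no value overlapped with the water group. The difference was -2.50 ± 0.53 (SE; adjusted p = 0.0162), and -4.21 with the slide as a fixed block (adjusted p = 0.000605); with a replicate block its adjusted p was 0.0507. Against DSS vehicle, Smoc2 under filgotinib differed by 1.33 ± 0.53 (adjusted p = 0.119).

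Axin2, a negative-feedback target of canonical Wnt signalling, was between -0.83 and -0.45 in water mice and at -1.70, -2.20, -2.50, -3.22 and -2.63 in filgotinib mice, with no overlap. The difference was -1.82 ± 0.25 (SE; adjusted p = 0.00252) and -1.56 with the slide as a fixed block (adjusted p = 0.586). The other Wnt feedback genes behaved alike in sign: the ubiquitin ligases Rnf43 and Znrf3, which remove Wnt receptors, fell by 1.02 and 0.79 on the log2 scale. Cdca7, a cell division gene of the crypt base, fell by 1.68, Hopx, a marker of reserve stem cells, by 1.08, the transcription factors Myc and Sox4 by 0.87 and 0.63, the chloride cotransporter Slc12a2 by 0.74 and the BMP co-receptor Rgmb by 0.52. Members that were not called included Sox9 (-0.11, adjusted p = 0.76), Ephb2 (-0.16, adjusted p = 0.623), Ephb3 (0.10, adjusted p = 0.492), the polycomb gene Bmi1 (0.04, adjusted p = 0.833) and Lrig1 (-0.49, adjusted p = 0.0532).

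Other genes with a large fall included Rgcc, a regulator of the cell cycle that responds to complement, with levels of 2.88, 3.12, 3.01, 3.22 and 3.04 in water mice and -2.19, -1.78, -0.61, -2.74 and -3.09 in filgotinib mice. The values did not overlap, and the difference was -5.14 ± 0.58 (SE; adjusted p = 0.000966), against -6.25 with the slide as a fixed block (adjusted p = 0.519). Filgotinib and DSS vehicle mice differed in Rgcc by -0.19 (adjusted p = 0.865).

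Npy1r, a receptor for neuropeptide Y and peptide YY, was between -0.24 and 0.57 in water mice and at -2.15, -2.21, -2.55, -3.20 and -3.33 in filgotinib mice. The groups did not overlap, and the difference was -2.88 ± 0.28 (SE; adjusted p = 0.000164), against -2.86 with the slide as a fixed block (adjusted p = 0.519). The receptor tyrosine phosphatase Ptpro fell by 2.98 on the log2 scale, the protocadherin Pcdh17 by 2.71, the estrogen-responsive gene Greb1 by 2.50, the betaine transporter Slc6a12 by 2.20, the phospholipid flippase Atp10a by 2.10, the sperm protein gene Spaca6 by 2.02, Dtl, which directs the licensing factor Cdt1 to degradation, by 1.94, and the transcriptional regulator Dach1 by 1.92. Bhlhb9, a gene related to the Bex family, fell by 1.91. In each of these 8 genes and in Bhlhb9, filgotinib did not differ from DSS vehicle by the test, with adjusted p between 0.0914 and 0.68. A930003A15Rik was at least 2.79-fold lower than in water, Rpp25, a subunit of ribonuclease P, at least 1.84-fold, the kinase gene Dyrk3 at least 1.81-fold and the nuclear receptor gene Nr1h5 at least 1.74-fold.

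A few strong falls were smaller under filgotinib than in DSS vehicle mice by the direct test. Il33, an alarmin cytokine of barrier cells, was at -1.08, -0.38, -1.30, -0.58 and -0.37 under water, -4.49, -5.20, -4.32, -4.12 and -3.76 under DSS with vehicle and -2.84, -1.54, -2.21, -4.50 and -3.03 under filgotinib. Filgotinib mouse 4 lay within the DSS vehicle range and the other 4 between the groups. Il33 differed from water by -2.08 ± 0.44 (SE; adjusted p = 0.0153; -2.43 and adjusted p = 0.61 with the slide as a fixed block) and was 1.55 above DSS vehicle (adjusted p = 0.0365). Bex4 and Bex1, small adaptor proteins found in neuronal and endocrine cells, fell by 2.09 and 1.71 and were 2.02 and 1.79 above DSS vehicle (adjusted p = 0.0214 and 0.0101). Bex4 lost its call against water without filgotinib mouse 5 and without water mouse 2, 4 or 5.

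The cell cycle list held a difference between phases. Of 41 measured genes 13 (31.7%, beside 3.41% of all genes) fell against water under filgotinib and none rose, with a median of -0.46. In DSS vehicle mice 39 fell, with a median of -1.28. Divided by textbook role, all 13 belonged to the 20 genes of G1 and S phase, which license and copy DNA, and none to the 21 genes of G2 and M phase, which run the spindle and cell division (1 of these at an unadjusted p under 0.05). This division was made after the values were seen, so it is described here without a test. The median of the G1 and S genes was -0.93 against water in filgotinib mice and -1.24 in DSS vehicle mice, where 18 of 20 fell. The median of the G2 and M genes was -0.13 in filgotinib mice and -1.32 in DSS vehicle mice, where all 21 fell. In the direct comparison with DSS vehicle, 21 of 21 G2 and M genes were higher under filgotinib, with a median of 1.21, and 0 of 20 G1 and S genes were called by limma (6 at an unadjusted p under 0.05), with a median of 0.27.

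The medians of the phases differed within each filgotinib mouse. The median of the G1 and S genes relative to the water mean was -1.35, -0.65, -0.92, -0.68 and -1.23 in filgotinib mice 1 to 5 and -0.04, 0.53, -0.68, 0.24 and 0.04 in water mice, so water mouse 3 overlapped with the filgotinib group. The median of the G2 and M genes was -0.77, 0.31, 0.20, -0.0032 and -0.24 in filgotinib mice, with mouse 1 below the water range of -0.38 to 0.31, and between -2.11 and -0.64 in DSS vehicle mice. The difference between these medians, G1 and S minus G2 and M, was -0.58, -0.96, -1.12, -0.68 and -0.99 in filgotinib mice. It lay between -0.30 and 0.21 in water mice and between -0.23 and 0.28 in DSS vehicle mice, so every filgotinib mouse was below every mouse of the other groups. The number of G1 and S genes that fell was 8 without filgotinib mouse 1, 5 without filgotinib mouse 5, between 6 and 7 without water mouse 2, 4 or 5 and 4 with a replicate block. With the slide as a fixed block the medians were -1.05 for G1 and S and -0.92 for G2 and M, so the difference between phases was small there. That setting draws on filgotinib mice 1 and 2 only, with DSS vehicle mouse 2 as the link to water. The G2 and M median of DSS vehicle mouse 2 was -2.11, the lowest of its group. With the scan day as a block 19 G1 and S genes and 3 G2 and M genes fell.

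The fallen G1 and S genes included most subunits of the MCM helicase, which unwinds DNA at origins. Mcm6 was at 3.18, 3.97, 1.96, 3.42 and 3.22 in water mice and at 1.08, 1.89, 1.58, 1.85 and 0.95 in filgotinib mice. Water mouse 3 was the lowest of its group, just above the highest filgotinib mouse. The difference was -1.68 ± 0.38 (SE; adjusted p = 0.0193), against -1.73 with the slide as a fixed block (adjusted p = 0.61), and the call was lost without filgotinib mouse 5. Mcm5, Mcm2, Mcm7 and Mcm4 fell by 1.50, 1.25, 0.88 and 0.81 on the log2 scale, and Mcm3 had -1.21 (adjusted p = 0.0515). The loaders Cdc6 and Cdt1 fell by 0.95 and 0.86, the initiation factors Cdc45 and Mcm10 by 0.93 each, the sliding clamp Pcna by 0.55, and Uhrf1, which guides DNA methylation to new strands, by 1.46. E2f1, a transcription factor that opens S phase, fell by 1.31, and the G1 cyclin Ccne1 by 1.16. Enzymes that make nucleotides were not called: Rrm1 had -0.42 (adjusted p = 0.0859), Rrm2 -0.62 (adjusted p = 0.165), Tk1 -0.57 (adjusted p = 0.202) and Tyms -0.08 (adjusted p = 0.767).

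Mki67, the usual marker of dividing cells, was at 3.64, 4.12, 3.19, 3.77 and 3.72 under water, 2.13, 1.60, 3.14, 2.66 and 2.50 under DSS with vehicle and 2.86, 3.92, 3.99, 3.69 and 3.34 under filgotinib. Filgotinib mice 2 to 5 lay within the water range and mouse 1 below it, within the range of DSS vehicle mice. The difference from water was -0.13 ± 0.28 (SE; adjusted p = 0.8) and that from DSS vehicle 1.15 ± 0.28 (adjusted p = 0.0186). The mitotic cyclins Ccnb1 and Ccnb2 had 0.15 (adjusted p = 0.732) and 0.09 (adjusted p = 0.872) against water, and were 1.57 and 1.34 above DSS vehicle (adjusted p = 0.00236 and 0.00794). The largest negative difference from water in the group, for the mitotic kinase Aurkb, was -0.73 (adjusted p = 0.0743), and the largest positive one, for the kinetochore motor Cenpe, was 0.33 (adjusted p = 0.333).

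**Figure D1:**
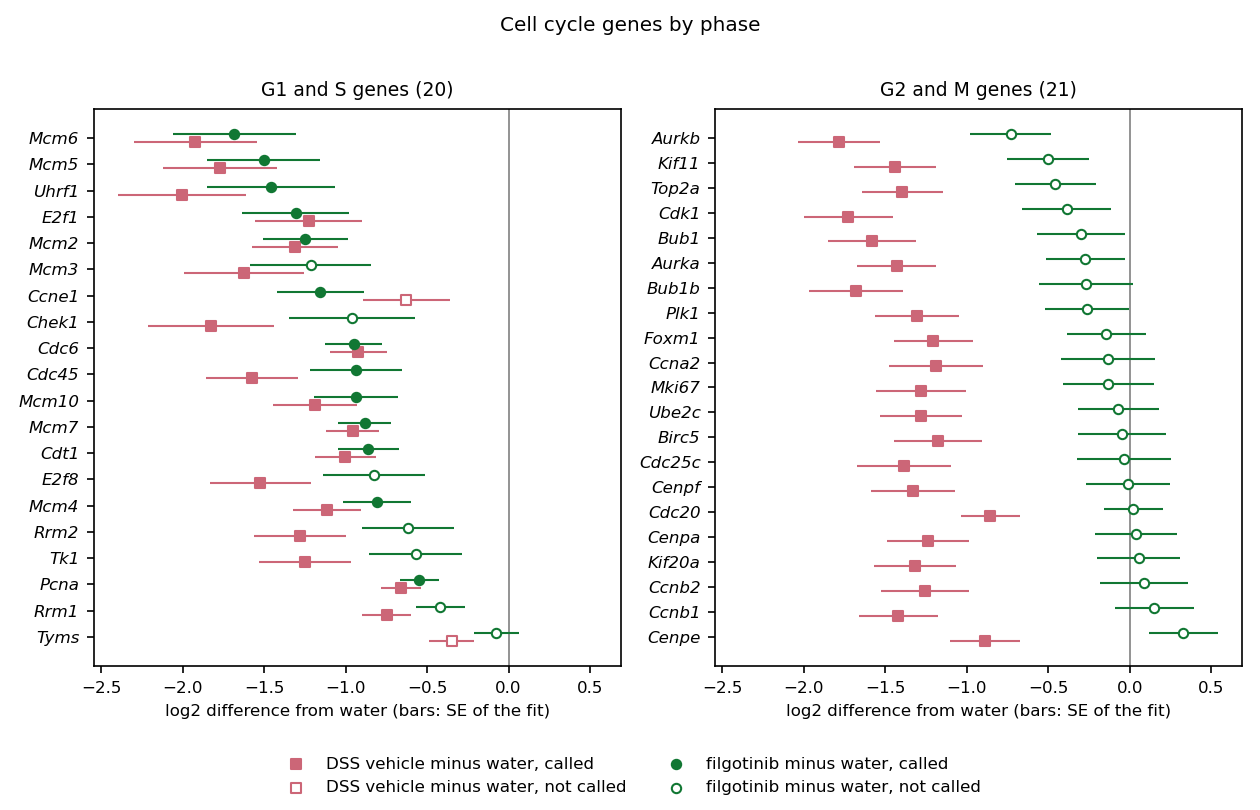
Difference from water on the log2 scale (x axis) for the 20 G1 and S genes and the 21 G2 and M genes of the cell cycle list (y axis); squares are DSS vehicle mice and circles filgotinib mice, bars are the SE of the fit, and filled symbols were called. DSS vehicle values lie well below 0 on both sides, while filgotinib values stay below 0 for G1 and S genes (median -0.93) and gather around 0 for G2 and M genes (median -0.13).

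Promoters were read for both groups of cell cycle genes, a division made after the values were seen. The windows are the 250 bases before the start site in RefSeq's GRCm38.p6 annotation, and letters were counted on both strands, overlapping matches included. A gene counted if any of its listed promoters held a match. The E2F letters were TTCCCGC, with the variants TTCGCGC and also TTGCCGC, and lastly TTGGCGC, a form of the site bound by the E2F family. They were present in 8 of 19 G1 and S genes with a promoter (42.1%), 3 of 16 G2 and M genes (18.8%) and 9.01% of all 27025 genes. The CHR letters TTTGAA, a site known from genes of mitosis, were present in 3 of 19 (15.8%), 7 of 16 (43.8%) and 18.26% of them. A match describes letters, not a bound site. The promoters below are those with a match and a single listed promoter whose genes were furthest below water (G1 and S, E2F letters) or furthest above DSS vehicle (G2 and M, CHR letters), written 5′ to 3′ on the strand of the gene with the matched letters in capitals.
Mcm6 chr1:128359706-128359955 (minus strand): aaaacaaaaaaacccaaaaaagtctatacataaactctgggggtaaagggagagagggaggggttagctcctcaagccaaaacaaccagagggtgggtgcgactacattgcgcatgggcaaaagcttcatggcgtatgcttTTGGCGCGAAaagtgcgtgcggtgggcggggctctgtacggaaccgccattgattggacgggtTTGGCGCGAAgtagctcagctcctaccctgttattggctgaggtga
Mcm5 chr8:75109259-75109508 (plus strand): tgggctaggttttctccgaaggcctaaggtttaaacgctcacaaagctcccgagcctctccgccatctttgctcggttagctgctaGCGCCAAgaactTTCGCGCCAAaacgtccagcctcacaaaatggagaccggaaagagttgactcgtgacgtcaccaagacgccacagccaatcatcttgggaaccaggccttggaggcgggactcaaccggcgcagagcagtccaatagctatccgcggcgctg
Cdc6 chr11:98907901-98908150 (plus strand): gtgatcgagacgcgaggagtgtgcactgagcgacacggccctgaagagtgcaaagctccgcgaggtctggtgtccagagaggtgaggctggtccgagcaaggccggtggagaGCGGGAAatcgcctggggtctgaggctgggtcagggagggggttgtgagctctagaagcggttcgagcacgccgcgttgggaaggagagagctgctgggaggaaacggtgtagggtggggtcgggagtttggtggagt
Ccnb2 chr9:70421555-70421804 (minus strand): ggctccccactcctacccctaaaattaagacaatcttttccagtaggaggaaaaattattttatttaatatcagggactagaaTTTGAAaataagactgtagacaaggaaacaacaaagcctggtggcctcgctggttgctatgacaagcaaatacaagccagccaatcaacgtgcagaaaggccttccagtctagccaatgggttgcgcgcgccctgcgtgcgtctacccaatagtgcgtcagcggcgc
Cdk1 chr10:69352913-69353162 (minus strand): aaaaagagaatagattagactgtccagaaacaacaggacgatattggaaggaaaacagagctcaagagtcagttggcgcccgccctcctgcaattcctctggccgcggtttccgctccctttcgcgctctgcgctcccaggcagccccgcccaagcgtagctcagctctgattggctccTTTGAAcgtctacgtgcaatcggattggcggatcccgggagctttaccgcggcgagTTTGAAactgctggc
Ube2c chr2:164769679-164769928 (plus strand): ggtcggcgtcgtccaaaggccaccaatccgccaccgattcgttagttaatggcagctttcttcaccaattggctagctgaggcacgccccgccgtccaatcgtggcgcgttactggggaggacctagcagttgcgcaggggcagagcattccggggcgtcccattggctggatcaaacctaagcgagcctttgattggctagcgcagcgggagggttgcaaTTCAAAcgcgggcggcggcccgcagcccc
Mcm6 has 4 E2F matches, which overlap in 2 pairs, Mcm5 has 3 and Cdc6 has 1; Cdk1, the mitotic kinase, has 2 CHR matches, and Ccnb2 and Ube2c, which marks mitotic cyclins for destruction, have 1 each. Against water Cdk1 and Ube2c had -0.39 (adjusted p = 0.374) and -0.07 (adjusted p = 0.888), and against DSS vehicle they were 1.34 and 1.21 higher (adjusted p = 0.00818 and 0.00881). In the crypt list 7 of the 12 fallen genes had a promoter, and 3 of the 7 (42.86%) held the E2F letters. None of the 7 held the TCF/LEF letters CTTTGAA, with the variants CTTTGAT and also CTTTGTA, and lastly CTTTGTT. These letters were present in 16.75% of all 27025 genes with a promoter. CTTTGAA contains the CHR letters.

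Some genes stood apart from both other groups, called in the same direction against water and against DSS vehicle. Those given here were named by size of change or as list members, and the whole set was not counted. Ccnd1, cyclin D1, which drives the step from G1 to S, was at 1.1, 1.83, 1.32, 1.82 and 1.98 under water, 1.90, 1.35, 1.90, 1.88 and 1.42 under DSS with vehicle and 0.37, 0.69, 0.79, 0.82 and 0.26 under filgotinib. All filgotinib mice were below all others. The difference was -1.02 ± 0.18 (SE; adjusted p = 0.00956) from water and -1.1 ± 0.18 (adjusted p = 0.00356) from DSS vehicle, while DSS vehicle and water differed by 0.08 (adjusted p = 0.798). With the slide as a fixed block the difference from water was -1.51 (adjusted p = 0.596).

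Trp53, the p53 tumour suppressor, was at 0.51, 0.62, 0.07, 0.53 and 0.66 in water mice, between -0.38 and -0.12 in DSS vehicle mice and at -0.76, -0.54, -0.63, -0.85 and -1.04 in filgotinib mice. The 3 groups were ordered without overlap, with filgotinib lowest. Trp53 differed from water by -1.24 ± 0.12 (SE; adjusted p = 0.000133; -0.93 and adjusted p = 0.586 with the slide as a fixed block) and from DSS vehicle by -0.55 ± 0.12 (adjusted p = 0.00974). Duox2, an epithelial oxidase that makes hydrogen peroxide, was between -0.59 and -0.19 in water mice, between -0.62 and -0.11 in DSS vehicle mice and at -1.35, -0.83, -1.57, -0.91 and -1.68 in filgotinib mice. Its difference was -0.83 ± 0.16 (SE; adjusted p = 0.0118) from water and -0.94 ± 0.16 (adjusted p = 0.00369) from DSS vehicle; on the first scan day the adjusted p against water was 0.06, and with the slide as a fixed block the value was -0.24 (adjusted p = 0.857). Its maturation factor Duoxa2 fell by 0.59 and was also lower than in DSS vehicle (difference -0.94). The polarity gene Pard6b fell by 0.47 and the antiproliferative gene Tob2 by 0.91. Pard6b lost its call without water mouse 4 or 5.

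Akr1b8, an aldo-keto reductase that clears reactive aldehydes, was between 3.76 and 3.96 in water mice, at 4.82, 5.03, 4.20, 3.95 and 4.07 in DSS vehicle mice and at 5.27, 6.18, 5.09, 5.43 and 5.59 in filgotinib mice. Every filgotinib mouse was above every other mouse, with differences of 1.64 ± 0.22 (SE; adjusted p = 0.00242) from water and 1.1 ± 0.22 (adjusted p = 0.00775) from DSS vehicle; the slide block gave 2.53 from water (adjusted p = 0.537). Nqo1, a quinone reductase, was between -2.33 and -1.89 in water mice, between -2.06 and -1.41 in DSS vehicle mice and at -0.99, -0.39, -1.39, -1.20 and -0.92 in filgotinib mice. The values did not overlap with either group, although filgotinib mouse 3 was close to the highest DSS vehicle mouse. Nqo1 rose by 1.09 ± 0.17 (SE; adjusted p = 0.00509) and was 0.65 above DSS vehicle (adjusted p = 0.027); with the slide as a fixed block it was 1.52 above water (adjusted p = 0.586). Phox2a, a transcription factor of autonomic neurons, rose by 1.64 and Isg20, an interferon-induced exonuclease, by 0.47; Phox2a lost its call without filgotinib mouse 5 or water mouse 4 or 5, and Isg20 without filgotinib mouse 5.

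**Figure D2:**
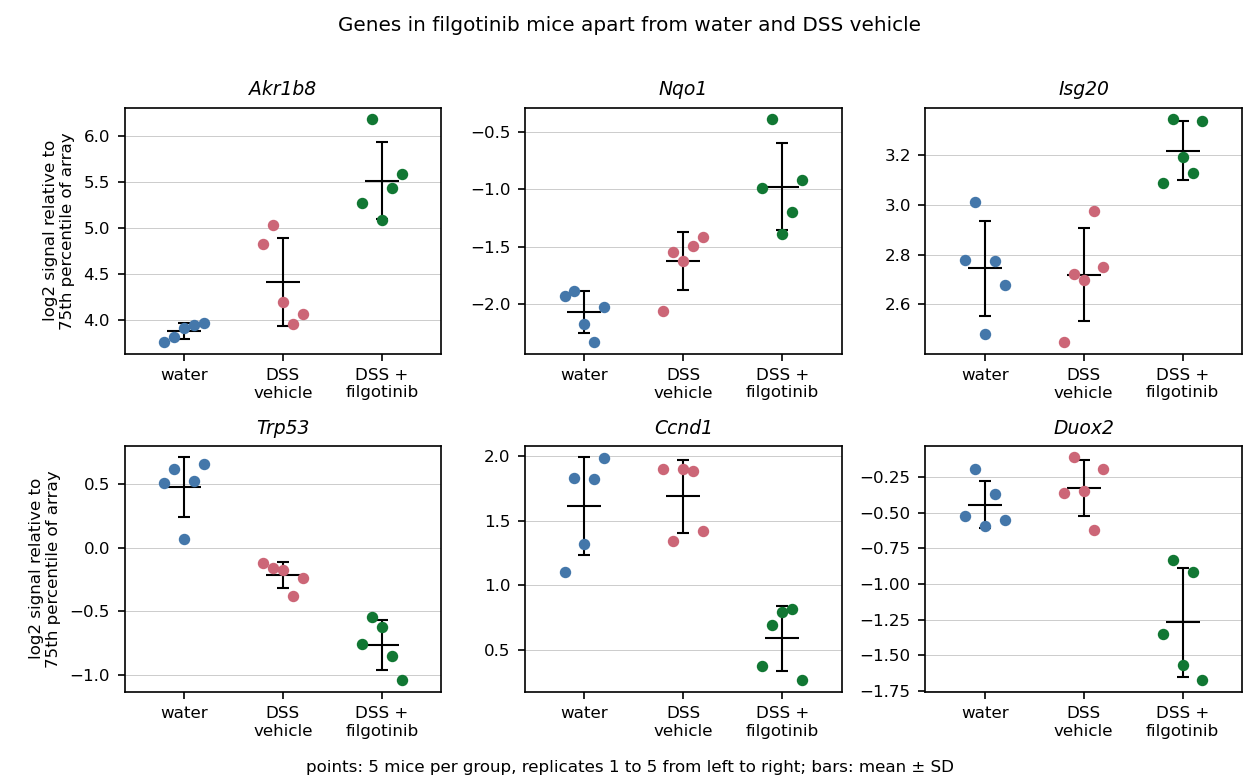
Level of 6 genes in each mouse, on the y axis as log2 signal relative to the 75th percentile of the array, for the 3 groups on the x axis; points are the 5 mice of a group and bars the mean ± SD. Filgotinib mice lie above both other groups for Akr1b8, Nqo1 and Isg20 and below both for Trp53, Ccnd1 and Duox2, with Ccnd1 between 0.26 and 0.82 against 1.1 or more elsewhere.

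Among the genes above water, the largest rise was that of Ido1, the interferon-induced enzyme that opens tryptophan breakdown. It was at -1.72, -1.17, -1.13, -0.67 and -1.57 under water, 2.58, 1.08, 1.79, 2.83 and 2.58 under DSS with vehicle and 2.81, 2.92, -0.21, 3.64 and 0.02 under filgotinib. Filgotinib mice 1, 2 and 4 were at or above the level of DSS vehicle mice, and mice 3 and 5 lay just above water. The difference from water was 3.09 ± 0.67 (SE; adjusted p = 0.0168; 2.62 and adjusted p = 0.613 with the slide as a fixed block) and that from DSS vehicle -0.34 ± 0.67 (adjusted p = 0.784). Of 36 measured interferon gamma-induced genes, 3 (8.33%, beside 6.42% of all genes) rose and none fell, with a median of 0.13. They were Ido1, the transcription factor Irf1 by 0.49 and the tryptophan tRNA ligase Wars by 0.29. Irf1 and Wars each lost the call in 6 of 10 fits without 1 water or filgotinib mouse. In 13 other settings they lost it in 8 and 10. In DSS vehicle mice 17 of the 36 were higher, beside 10.8% of all genes, with a median of 0.50. Among 38 type I interferon-induced genes 2 (5.26%, beside 6.42% of all genes) rose, Isg20 and Ifi202b, a p200 family DNA sensor, with a median of -0.05. In DSS vehicle mice 12 were higher, with a median of 0.54. Ifi202b rose by 2.58 (adjusted p = 0.0323) and lost that call without filgotinib mouse 2 or 4 or water mouse 2, 3 or 4.

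Pla2g2a, a secreted phospholipase with antibacterial activity, was at 0.51, -0.52, -0.69, 0.27 and -0.43 in water mice and 2.38, 1.74, 1.41, 3.77 and 2.61 in filgotinib mice. The groups did not overlap, and filgotinib mice covered the DSS vehicle range of 1.96 to 3.05. The difference was 2.55 ± 0.40 (SE; adjusted p = 0.00527) from water and -0.18 ± 0.40 (adjusted p = 0.805) from DSS vehicle; with the slide as a fixed block it was 1.97 (adjusted p = 0.61). Of 25 antimicrobial and barrier defence genes 3 rose (Pla2g2a, and the protease inhibitors Wfdc18 by 1.87 and Slpi by 1.63) and 4 fell, Nox1, Duox2, Duoxa2 and the ribonuclease Ang4. These calls made up 28% of the list, beside 9.83% of all genes. Slpi was 1.68 below DSS vehicle (difference -1.68, adjusted p = 0.00911). Wfdc18 lost its call without filgotinib mouse 2, 4 or 5 or any 1 of the water mice. The lectin Reg3g was between -4.65 and -3.69 in water mice and at -3.85, -0.76, -2.95, 0.89 and -3.05 in filgotinib mice, so mice 2 and 4 were far above the rest, and its difference of 2.29 was not called (adjusted p = 0.0761).

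Mast cell proteases were between the water and DSS vehicle groups. Mcpt1, a chymase of mucosal mast cells, was between -5.01 and -4.50 in water mice, between -0.43 and 0.06 in DSS vehicle mice and at -2.35, -1.64, -3.70, -0.94 and -2.76 in filgotinib mice. All filgotinib mice were above all water mice and below all DSS vehicle mice. Mcpt1 rose by 2.48 ± 0.37 (SE; adjusted p = 0.00406) and was lower than in DSS vehicle mice by the direct test (difference -2.04, adjusted p = 0.00499); with the slide as a fixed block its difference from water was 3.16 (adjusted p = 0.537). Mcpt4, another chymase, rose by 2.39 and differed from DSS vehicle by -2.0 (adjusted p = 0.00472). Of 13 measured mast cell genes Mcpt1, Mcpt4 and Mcpt2 were called (23.1%, beside 9.83% of all genes) and none fell. Mcpt2 was not well above background on any water or filgotinib array, so its call compares background readings and no fold is given; it was lost in 5 of 10 fits without 1 water or filgotinib mouse and in 6 of 12 other settings. Of the rest, the receptor gene Kit had 0.18 (adjusted p = 0.325) and the IgE receptor gene Fcer1a -0.17 (adjusted p = 0.689). The IL-33 receptor Il1rl1 had background readings near water in filgotinib mice 1 and 5 (-6.57 and -6.13) and -1.54, -2.72 and -4.36 in mice 2, 3 and 4, with a difference of 2.55 that was not called (adjusted p = 0.0591).

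Other immune lists differed in their share of calls, beside 9.83% of all genes. None of 17 neutrophil genes, 18 macrophage and monocyte genes, 9 MHC class II genes or 17 matrix metalloproteinase and inhibitor genes was called by limma (0, 2, 1 and 4 at an unadjusted p under 0.05), with medians of 0.09, 0.31, 0.66 and 0.28; in DSS vehicle mice 6, 2, 4 and 6 of them were higher than water. Of 25 inflammatory cytokine and chemokine genes 4 (16%) were called: the cytokine Il18 and the neutrophil chemokine Cxcl5 rose by 0.53 and 1.52, and Il33 and the NF-kappa-B regulator Nfkbiz fell by 2.08 and 0.64. In the list of 30 JAK-dependent cytokines and their receptors 5 (16.7%) were called: the receptor genes Il2rg, Il4ra, Il11ra1 and Il15ra rose by 0.77 to 0.28, and Il15 fell by 0.45. The rises in these lists numbered 0 to 3 and 0 to 5 when 1 water or filgotinib mouse was left out. Of 14 B and plasma cell genes 2 (14.3%) were called: the receptor Cd22 fell by 0.41 and Xbp1 rose by 0.34. With the mean of all probes Cd22 lost its call (adjusted p = 0.809). Xbp1 lost its call there and with median scaling, quantile normalization, the authors' deposited table and the first scan day.

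Of 28 STAT3-induced and acute-phase genes 4 (14.3%) were called. Of these 3 rose, Lbp, which presents bacterial lipopolysaccharide, by 1.60, the receptor genes Il4ra by 0.68 and Tnfrsf1b by 0.35, and Muc1 fell by 0.71, while 13 of the 28 were higher in DSS vehicle mice; without filgotinib mouse 4 or 5 or water mouse 1, 2, 4 or 5, 1 of the 28 rose. Lbp was between -3.26 and -2.21 in water mice and at -1.35, -0.90, -1.04, -0.67 and -1.14 in filgotinib mice, with no overlap, and differed from DSS vehicle by 0.13 (adjusted p = 0.8). The acute-phase gene Saa3 had 0.55 (adjusted p = 0.539), the STAT3 feedback inhibitor Socs3 0.79 (adjusted p = 0.0864), the siderophore binder Lcn2 0.68 (adjusted p = 0.282), the cytokines Il1b and Tnf 0.73 (adjusted p = 0.381) and 0.17 (adjusted p = 0.198), and the stromelysin Mmp3 2.86 (adjusted p = 0.0655). Of these, Saa3, Socs3 and Tnf were lower than in DSS vehicle mice by the direct test, with adjusted p of 0.00252, 0.00489 and 0.0224. The complement gene C3 rose by 1.63 (adjusted p = 0.0124), and filgotinib mouse 1 overlapped with the water range. The target of the drug, Jak1, had 0.19 (adjusted p = 0.0864) and the transcription factor Stat3 had 0.24 (adjusted p = 0.0865).

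Enzymes that burn fat were among the genes above water. Decr1, a mitochondrial reductase needed to oxidise unsaturated fatty acids, was at 4.30, 4.34, 4.39, 4.30 and 4.37 in water mice and at 4.83, 4.81, 4.84, 5.18 and 5.06 in filgotinib mice, and between 4.70 and 4.91 in DSS vehicle mice. All filgotinib mice were above all water mice, with mice 1 to 3 inside the DSS vehicle range and mice 4 and 5 above it. Decr1 rose by 0.60 ± 0.08 (SE; adjusted p = 0.00237; 0.58 and adjusted p = 0.579 with the slide as a fixed block) and differed from DSS vehicle by 0.14 ± 0.08 (adjusted p = 0.253). In the list of 32 genes for fatty acid oxidation and ketone synthesis 8 (25%, beside 6.42% of all genes) rose and none fell, with a median of 0.29. Besides Decr1 these included the fatty acid binding protein Fabp2 by 0.89, the thiolase Acaa2 by 0.52, the carnitine transferase Cpt2 by 0.41 and the acyl-CoA dehydrogenases Acadvl and Acads by 0.39 and 0.31. In DSS vehicle mice 8 of the 32 were higher and 1 lower, with a median of 0.17. The filgotinib count was 15 without filgotinib mouse 3, 4 without filgotinib mouse 5 or water mouse 2, 5 without filgotinib mouse 4 or water mouse 4 or 5 and between 2 and 3 with median scaling, quantile normalization or the authors' deposited table. Of 27 glycolysis and hypoxia response genes 4 rose (Ndrg1, Aldoa, Gpi1 and Pgk1, by 0.53 to 0.29), of 25 unfolded protein response genes 4 (Herpud1, the chaperone Hspa5, Xbp1 and Ern2, by 0.49 to 0.31) and of 40 xenobiotic and steroid metabolism genes 5 (Sult1c2, Cyp2c68, Gstm1, Gsta4 and Akr1c13, by 0.63 to 0.33), and none fell; these shares, 14.8%, 16% and 12.5%, stand beside 6.42% of all genes that rose. With median scaling 1, 0 and 1 of them rose. Leaving out 1 water or filgotinib mouse gave between 1 and 5, between 2 and 4 and between 2 and 4 rises in these lists.

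Ccn3, a matricellular protein of the CCN family, rose by 2.09 ± 0.30 (SE; adjusted p = 0.00316), from 0.97, 0.85, 1.54, 1.86 and 0.79 in water mice to 2.99, 2.89, 2.75, 4.11 and 3.74 in filgotinib mice. The groups did not overlap, and DSS vehicle mice were between 2.32 and 3.24. The blocked difference was 1.73 (adjusted p = 0.61). Isx, an intestinal homeobox gene, rose by 2.44, the retinol dehydrogenase Dhrs9 by 1.69, Ddah1, which breaks down methylated arginine, by 1.84, and the secreted protein gene Ism1 by 1.67.

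**Figure D3:**
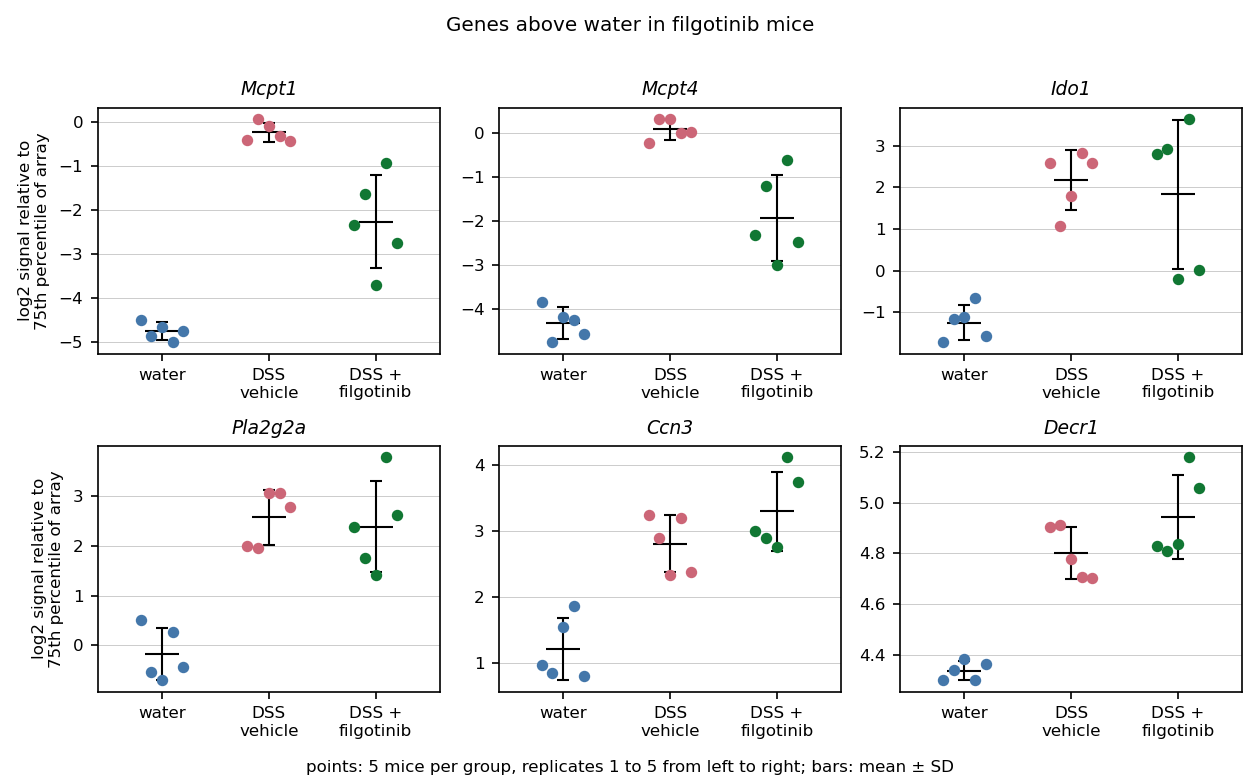
Level of 6 genes in each mouse, on the y axis as log2 signal relative to the 75th percentile of the array, for the 3 groups on the x axis; points are the 5 mice of a group and bars the mean ± SD. Filgotinib mice are above all water mice for each gene, below all DSS vehicle mice for Mcpt1 and Mcpt4, and spread from -0.21 to 3.64 for Ido1.

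In lists of mature epithelial cells the share of genes called against water was 13.3% for enteroendocrine, 15.6% for goblet, 19% for tuft and 2.5% for absorptive cells, beside 9.83% of all genes. Of 30 enteroendocrine genes, 3 rose and 1 fell under filgotinib, with a median of 0.11, whereas 25 were higher in DSS vehicle mice, with a median of 0.95, and 25 were lower under filgotinib than in DSS vehicle mice. Cck, a hormone released by fat and protein, was at -4.13, -4.18, -4.25, -4.17 and -4.29 in water mice, between -1.63 and -0.40 in DSS vehicle mice and at -3.43, -2.74, -3.33, -2.29 and -3.28 in filgotinib mice. The 3 groups did not overlap. Cck rose by 1.19 ± 0.24 (SE; adjusted p = 0.0132; 0.16 and adjusted p = 0.928 with the slide as a fixed block) and was lower than in DSS vehicle mice (difference -2.24, adjusted p = 0.00029). The peptide precursor Tac1 rose by 0.50, the carboxypeptidase Cpe by 0.34, and the prohormone convertase Pcsk1 fell by 0.52; without any 1 of the water mice, or without filgotinib mouse 2 or 5, 1 of the 30 rose and none fell.

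Of 32 goblet cell genes 3 rose, the transcription factor Spdef by 0.44, the mucin-folding isomerase Agr2 by 0.41 and Ern2 by 0.31. The potassium channel gene Kcnma1 and Ang4 fell by 0.76 and 0.58. With median scaling, quantile normalization or the authors' deposited table no gene of this list rose and 1 fell. In 10 fits without 1 water or filgotinib mouse, Spdef, Agr2, Ern2 and Ang4 lost the call in 3, 6, 7 and 7. The main secreted mucin Muc2 had 0.24 (adjusted p = 0.103), and the goblet cell lectin Itln1 and the Relm gene Retnlb had -0.16 (adjusted p = 0.829) and -0.15 (adjusted p = 0.843). Of 40 absorptive colonocyte genes 1 was called: the water channel Aqp4 rose by 1.42, and its 3 probes ranged from 0.05 to 1.42. The chloride exchanger Slc26a3 had -0.23 (adjusted p = 0.438), the carbonic anhydrase Car4 -0.33 (adjusted p = 0.242) and the water channel Aqp8 -0.01 (adjusted p = 0.975). Of 21 tuft cell genes the taste channel Trpm5, the prostaglandin synthase Hpgds and the kinase Dclk1 fell by 0.97, 0.86 and 0.78, and Cd300lf rose by 0.45. These 3 falls were each lost without any 1 of several water or filgotinib mice, and the list kept no fall without filgotinib mouse 5, any 1 of the water mice, or on the first scan day.

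Of 26 tight junction genes the pore-forming claudin Cldn2, a gene of the crypt base, fell by 1.55 (adjusted p = 0.017; adjusted p = 0.0825 on the first scan day), Cldn4 by 0.71 and Pard6b by 0.47. The positional genes Hoxd12 and Hoxd11, which mark the hindgut, fell by 1.28 and 0.99, while Cdx1 and Pdx1 rose by 0.33 and 1.1; Hoxd12 and Pdx1 each lost the call without several single mice. The basal keratin Krt14 rose by 1.50 (adjusted p = 0.0148), from between -0.78 and -0.24 in water mice to 0.37, 0.94, 1.15, 2.03 and 0.75 in filgotinib mice. The other squamous keratins Krt5 and Krt13 had -1.14 (adjusted p = 0.4) and 0.90 (adjusted p = 0.263). Of 19 squamous epithelium genes 2 (10.5%, beside 6.42% of all genes) rose, Krt14 and the serpin Serpinb5.

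The filgotinib mice differed among themselves most in stromal genes. The median of 36 collagen, fibroblast and matrix genes relative to the water mean was -2.08, 1.16, 2.33, 0.05 and -0.86 in filgotinib mice 1 to 5, and between -1.12 and 1.28 in water mice. Mouse 3 was thus the highest and mouse 1 the lowest of both groups. For 16 smooth muscle genes the filgotinib medians were -0.38, 1.05, 2.11, 0.32 and 0.65, and the muscle intermediate filament Des had 1.95 (adjusted p = 0.215). For 9 MHC class II genes they were 0.15, 1.31, 0.74, 1.21 and -0.39, so mice 1, 3 and 5 lay within the water range of -0.57 to 0.77. Filgotinib mouse 4 was the nearest to DSS vehicle mice in several genes, among them Mcpt1 (-0.94), Slpi (6.22, against 5.93 to 7.03 in DSS vehicle mice) and Ddah1 (0.10). In the crypt list, by contrast, the filgotinib mice spanned only -0.85 to -0.41. The part of stromal content in the differences from water was not tested.

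**Figure D4:**
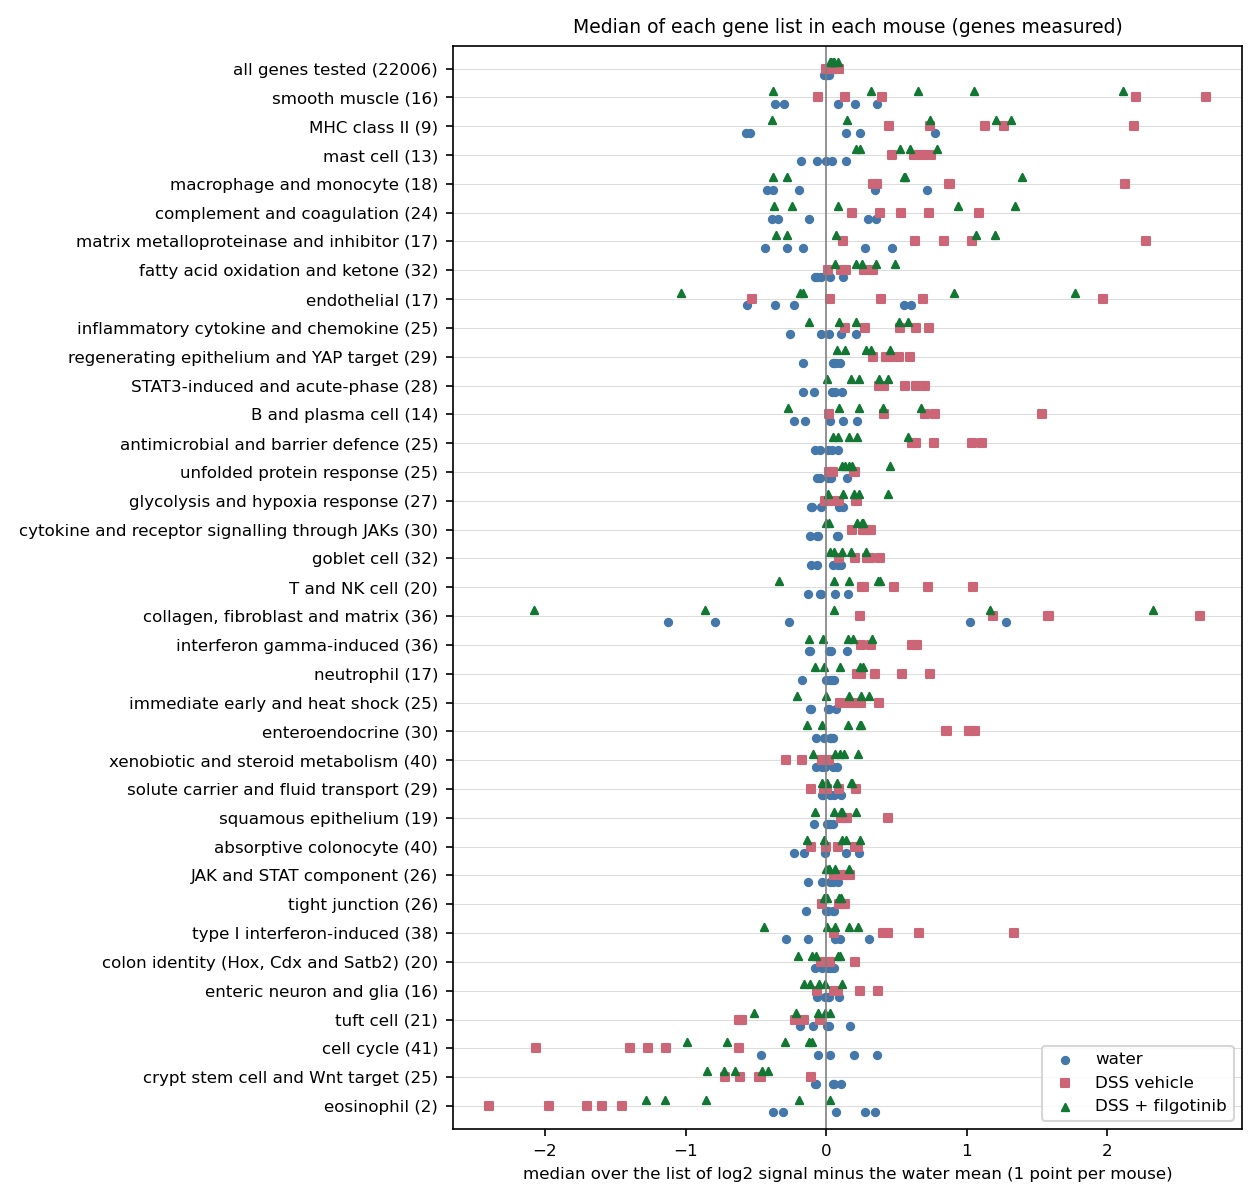
Median over each gene list of the log2 signal minus the water mean (x axis), with 1 point per mouse, for the lists named on the y axis with the number of genes measured; circles are water, squares DSS vehicle and triangles filgotinib mice. Filgotinib mice lie at -0.85 to -0.41 for the crypt list, around 0 for the enteroendocrine list, where DSS vehicle mice lie near 1, and from -2.08 to 2.33 for collagen, fibroblast and matrix genes.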

How the data were processed

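Gene expression was measured in the 15 samples on 1-colour Agilent arrays of 56605 probes. The deposited scanner files hold, per the file headers, the intensity of each spot, background-subtracted and detrended inside its array, with no step between arrays (Agilent Feature Extraction 11.5.1.1); limma is named in the submitters' processing notes. The authors' deposited table of log2 values, whose normalization is not given in the sources used here, was an alternative: each column tracked log2 of its own array (r between 0.9988 and 0.9997), with medians between 8.841 and 8.859.

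The values analysed were log2 of the processed signal minus the 75th percentile of the array. Control spots and 101 probes with an outlier mark were left out. Of the 56504 probes used, 33008 took their name by accession and 10165 by symbol from RefSeq's gene table (GRCm38.p6, for names and promoters only; the headers name mm9), 350 shared a matched name, and 12981 have the name in the file, perhaps an old one. Probes well above background on 5 or more arrays were used, the brightest for each gene, which left 22006 genes, 16215 of them in the table. Among 927 called genes with several probes, 593 (64.0%) had probes of 1 sign.

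A single limma 3.58.1 fit (R 4.3.3, with lmFit and eBayes, two-sided, group as factor) covered all arrays. The p-values were adjusted over all genes by Benjamini-Hochberg. They set a group difference against the spread between arrays within groups, 1 mouse per array, in which slide and scan-day differences are included. Both differences from water share the water mice. The members, gene lists and rules were chosen with earlier results of these data known, and the division by cell cycle phase after seeing the values. Genes were named if they had the 15 largest rises or falls without overlap, the 5 largest bounds each way, were up to 4 called members of a list or up to 6 genes each way called alike against both groups, or belonged to a set of colitis and epithelial genes (of which Cpa3 was not well above background on enough arrays); further list members were named after their values were seen, and a few genes are not reported here. In simulated data for filgotinib against water, over 22006 genes, the fit found 57.5% of the 1.5-fold changes, 73.75% of the 2-fold and 97.5% of the 4-fold, and called 9 unchanged genes. The simulated noise was independent for each gene and array, with no slide or scan-day effect. The simulation thus gives no rate of false calls for the real arrays. Alternatives changed the scaling, background correction, filter, probe rule and blocks (slide, scan day, replicate number) or left out 1 mouse. Tables and figures were made in Python 3.11.15 (pandas 2.3.3, numpy 2.4.6, matplotlib 3.10.9).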

Additional observations from a re-analysis of the deposited data

Results flagged for a closer look

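In the 164 gene and group combinations checked, 11 held a mouse far from the other 4 of its group, with a gap over 0.71 of the whole range; chance gives about 1 in 20. Filgotinib mouse 4 was the far one for Isx (1.07), Wfdc18 (4.81), Ddah1 (0.10), Bex4 (-3.51) and Bex1 (-2.10), in each case on the side of the DSS vehicle mice. Water mouse 3 was the far one, and the lowest of its group, for Ddah1 (-3.93), Spaca6 (-2.79), Trp53 (0.070) and Tob2 (1.15). Water mouse 1 was the highest for the collagenase gene Mmp13 (-5.38) and for the liver gene Alb (1.29).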

How the results depend on the processing

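The direction of the difference from water held for the 116 called named genes in every setting with a value, except with the slide as a fixed block, where Fer1l4 (-0.24), Hpgds (0.13), Cd300lf (-0.17) and Ly6d (-0.44) changed sign, 110 others lost the call, and Lgr5 and Smoc2 kept it; no slide held both groups. The medians of 16 of 36 lists also changed sign with that block, among them interferon gamma-induced (-0.07), macrophage (-0.70), MHC class II (-0.40) and metalloproteinase genes (-0.65); the medians of 7 lists did so with quantile normalization. Of the 116 genes, 61 kept the call with each water or filgotinib mouse left out in turn and 33 in all settings other than that block. The count of genes that differed from water, 2163 (1413 higher, 750 lower), was 715 (381 and 334) on the first scan day, a setting chosen after seeing the data, 1237 (595 and 642; 48.1% higher against 65.3%) with the authors' deposited table, 1416 (731 and 685; 51.6%) with the mean of all probes, 521 (254 and 267; 48.8%) with median scaling, 9049 (7912 and 1137; 87.4%) over 37000 genes without the filter, 4437 (3699 and 738; 83.4%) with normexp, 1197 (585 and 612; 48.9%) with quantile normalization, 1397 (900 and 497) with the slide as a random block, 2 (0 and 2) with the slide as a fixed block and 1079 (651 and 428) with water and filgotinib arrays alone. The median of all genes moved from 0.05 to 0.16 without the filter and 0.12 with normexp. DSS vehicle against water, 4219 genes (2367 higher, 1852 lower), gave 1619 on the first scan day, 2522 with median scaling and 84 with the slide as a fixed block. Filgotinib against DSS vehicle, 2492 genes, gave 1229 without the filter and 437 with that block. Leaving out 1 mouse gave 745 to 2886 genes for filgotinib against water, 2829 to 4641 for DSS vehicle against water and 1317 to 3061 for filgotinib against DSS vehicle. A replicate block gave 789 (464 and 325) for filgotinib against water and 1608 for filgotinib against DSS vehicle. Same-numbered water and filgotinib mice deviated from their group means with correlations of -0.39 to -0.02. For same-numbered mice of the other pairs of groups the correlations were -0.52 to 0.53. These values do not settle whether the numbers pair the mice. The cause of the shifts between settings was not tested.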

Other observations

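Alb and Ttr, genes of secreted transport proteins made mostly in liver, were near the water level under filgotinib. Alb was at -1.57, -1.52, -1.71, -2.04 and -1.83 in filgotinib mice and between -5.05 and -2.49 in DSS vehicle mice, a difference of 2.31 ± 0.57 (SE; limma adjusted p = 0.0206), and its difference from water was -0.63 (adjusted p = 0.505). Ttr was between 1.80 and 3.10 in filgotinib mice, between 2.75 and 3.39 in water mice and between 0.79 and 2.05 in DSS vehicle mice; it was 1.12 above DSS vehicle (adjusted p = 0.0135) and differed from water by -0.51 (adjusted p = 0.202). The pancreatic enzyme gene Cpa1 was at 2.61 in water mouse 1 and 3.99 in filgotinib mouse 4 and between -7.52 and -1.60 in the other 13 mice.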
